A study of Homo sapiens with 6 samples.

Results

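Single-cell RNA sequencing was read out in PC9 cells, a human lung adenocarcinoma line whose EGFR gene carries a deletion, that had been adapted to 75 nM or to 1.2 µM osimertinib, which blocks the EGFR kinase. Doses were raised in steps, and the cells at 150, 300 and 600 nM give the values between. The comparison asks what still differed once the cells had become resistant to a dose well below the final one. The 2 end populations held 1320 cells (75 nM) and 1072 cells (1.2 µM), or 2392 of the 11258 cells counted in this line, and were found by the population name attached to each cell. The 3 doses between held 3232 cells. The remaining PC9 populations, used as reference levels, were the untreated culture, the adapted 8, 16 and 32 nM cultures, and persisters, which outlived 9 days of 1.2 µM given at once rather than in steps.

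All populations carry the EGFR deletion and the adapted ones came from 1 dose escalation; whether each dose was split from the one below is not given in the sources used here. Each population was 1 culture. There are no replicates and no test between conditions, and differences are given by size. The 95% exact intervals in parentheses cover counting error only and would be wider with the spread between cultures. The cells of all 10 populations were tagged, pooled and processed together, and no cell barcode was shared between populations. The populations from 75 nM to 1.2 µM were alike in depth, with 7275335 to 9164979 unique molecular identifiers (UMIs, each standing for 1 captured RNA molecule) in all and a median of 6725 to 7034 per cell. Mitochondrial UMIs made up a median share of the cell's total that ran from 8.02% to 8.33%. Levels are given as UMIs per 1000000 UMIs of the population (CPM). The data fitted the label: KRT7, an epithelial keratin, stood at 2793 CPM at 75 nM and 2815 CPM at 1.2 µM, and none of the 8 epithelial marker genes differed by 1.5-fold. Of the marker genes of melanocytes, fibroblasts, immune, endothelial and erythroid cells, MITF, COL1A1 and CD68 reached 10 CPM at any of the 5 doses. MITF stood at 52.2 and 52.4 CPM, COL1A1 at 8.84 and 10.95 CPM, and CD68 at 13.8 and 13.8 CPM at 75 nM and 1.2 µM.

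Interferons are secreted proteins that put cells into an antiviral state. They bind receptors at the cell surface, the JAK1 and TYK2 kinases there pass the signal on, and a complex that holds STAT2 and IRF9 binds a short DNA element, the interferon-stimulated response element, at the promoters of interferon-stimulated genes. Cells can also turn on many of the same genes from within, when sensors such as RIG-I (gene DDX58), MDA5 (IFIH1) or cGAS meet nucleic acids out of place. MX1, the marker chosen for this comparison, is a textbook member of the group: it encodes a dynamin-like GTPase that blocks viruses and is barely made without interferon signalling.

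The letters of that response element are shown first, because interferon-stimulated genes made up 8 of the 16 genes at least 2-fold higher at 1.2 µM. The motif searched was GAAANNGAAA on either strand, in RefSeq promoter windows (GRCh38.p14) of 250 bases before to 50 bases after a gene's start. Overlapping matches were each allowed. A window was found by symbol for 7494 of 9293 measured genes. The lines below give 30 bases, 5′ to 3′ along the gene, with the match in capitals. They belong to the 5 of the 6 interferon genes past 2-fold with a window that held the motif.
MX1: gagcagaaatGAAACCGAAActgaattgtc
IFI6: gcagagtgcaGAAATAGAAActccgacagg
IFI27: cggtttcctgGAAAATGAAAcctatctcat
BST2: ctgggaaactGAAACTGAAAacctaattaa
HERC5: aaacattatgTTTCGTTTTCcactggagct
The MX1 stretch lies at chr21:41420559-41420588 on the plus strand and its match begins 11 bases after the start. A second MX1 start also had a match, which began 196 bases before it. The IFI6 stretch lies at chr1:27672266-27672295 on the minus strand, with the match nearest the start, of 3, beginning 93 bases before it. The IFI27 stretch lies at chr14:94110631-94110660 on the plus strand, with the nearer of 2 matches beginning 95 bases before the first of its 2 starts. The BST2 stretch lies at chr19:17405735-17405764 on the minus strand, with the nearer of 2 matches beginning 124 bases before the start. The HERC5 stretch lies at chr4:88457035-88457064 on the plus strand and holds the motif on the opposite strand; the match shown, nearest the start of 3, begins 74 bases before it. XAF1 was the sixth gene and had no match in either of its 2 windows.

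The motif was found for 23 of the 34 measured interferon-list genes with a window, or 67.6%, against 4.38% of all 27305 genes with a window and 3.95% of the measured genes. Among list members at least 1.5-fold higher at 1.2 µM, 11 of 15 had it, and among the other members 12 of 19 did. None of the 7 other genes past 2-fold with a window and none of the 4 genes 2-fold lower held it. A match is a run of letters and not a measured binding site.

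The high-dose plateau was nearly flat. Genes counted as measured if their higher population gave 10 CPM or more on at least 20 UMIs. A gene under 10 CPM in 1 of the 2 populations thus entered only through the other, where it was higher. Of 9293 measured genes, 16 were at least 2-fold higher at 1.2 µM than at 75 nM (0.172%) and 4 at least 2-fold lower (0.043%). At 1.5-fold the counts were 69 higher (0.742%) and 47 lower (0.506%). The median log2 ratio, taken as log2(CPM + 1), was -0.02 over the measured genes. Each single step changed less still. Genes 2-fold apart in either direction numbered 3 (0.0325%) from 75 to 150 nM, 1 (0.0108%) from 150 to 300 nM, 1 (0.0107%) from 300 to 600 nM and 3 (0.0323%) from there to 1.2 µM. Earlier in the escalation, 512 genes (5.48%) were 2-fold apart between untreated and 8 nM cells and 33 (0.353%) between 16 and 32 nM. The other earlier steps were small too, with 8 genes higher and 1 lower from 8 to 16 nM. From 32 to 75 nM, 2 genes were higher and 5 lower. The root mean square log2 ratio over measured genes was 0.142 to 0.163 in the 4 plateau steps and 0.185 from end to end, against 0.49 from untreated cells to 8 nM. It was 0.172 from 8 to 16 nM and 0.174 from 32 to 75 nM, so small steps were not particular to the plateau. The populations at 600 and 150 nM, which share no cell with the end comparison, had 4 genes 2-fold apart (0.0431%), 2 in each direction. GFRA1 and CRISP3 were higher at 600 nM and KCNQ5 and TNS4 lower, none of them in the interferon list; CRISP3 and TNS4 are named because they complete this count.

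**Figure D1:**
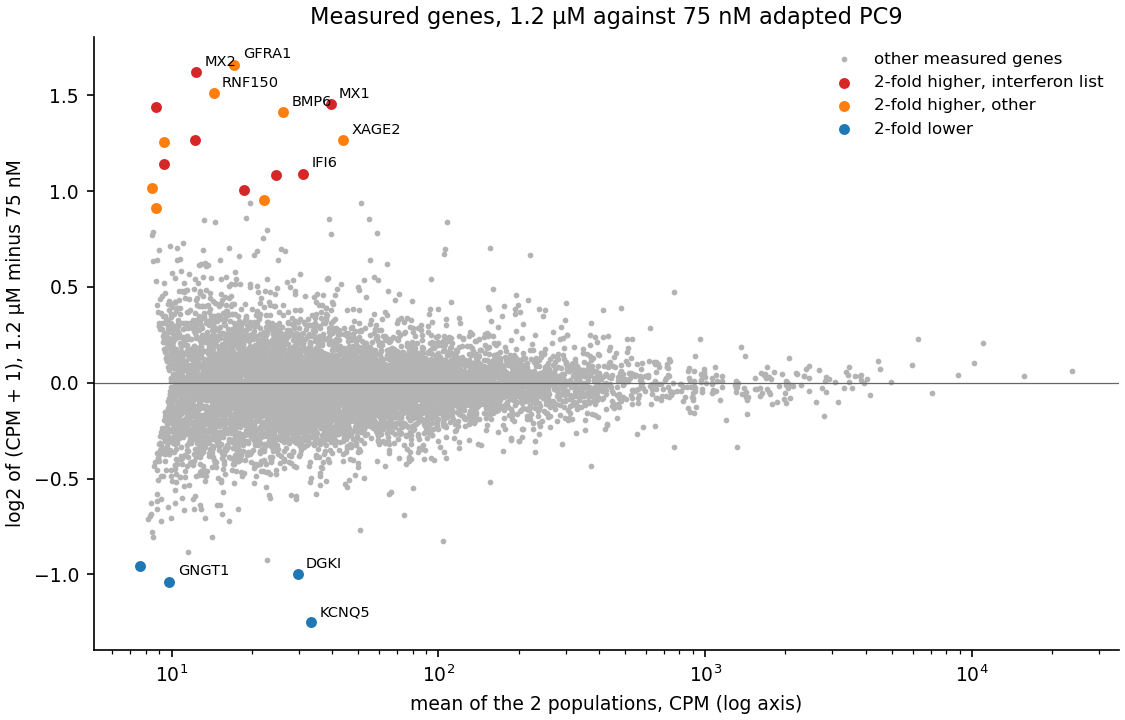
Each point is 1 of 9293 measured genes, with the mean of the 1.2 µM and 75 nM levels on the horizontal axis (CPM, log scale) and the log2 ratio of CPM + 1 on the vertical axis. Red points are the 8 interferon-list genes past 2-fold, orange points the 8 other genes 2-fold higher and blue points the 4 genes 2-fold lower; nearly all other genes form a narrow band around 0.

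From 75 nM to 1.2 µM, MX1 was higher at each dose than at the one below, with most of the difference at the top. It lies on chromosome 21 (GRCh38, 41420304 to 41459214, plus strand, GENCODE v29). The 75 nM cells had 20.6 CPM (189 UMIs), the 3 doses between had 22.7, 24.1 and 32.6 CPM, and the 1.2 µM cells had 58.3 CPM (431 UMIs). The order of levels followed the order of doses, but the first 3 lay close together. The 150 nM level lay within the 75 nM counting interval (17.8 to 23.8 CPM) and the 300 nM level just above it, so their order is not clear. The gap from 600 nM to 1.2 µM, 1.79-fold, was the widest. From end to end MX1 was 2.83-fold higher (2.38 to 3.37), a log2 ratio of 1.45. Untreated cells stood at 2.94 CPM, the 8, 16 and 32 nM populations at 17.2, 25.7 and 22.4 CPM and the persisters at 12.02 CPM. MX1 was thus near its 75 nM level from the lowest doses on, and the 1.2 µM cells had the highest of the 10 levels.

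MX2, the neighbouring paralogue on chromosome 21 (41361943 to 41409390), gave 5.57, 8.78, 7.70, 10.4 and 19.2 CPM from 75 nM to 1.2 µM. It was 3.45-fold higher (2.49 to 4.85), with 142 against 51 UMIs. OAS2, an oligoadenylate synthetase that arms the RNA-cutting enzyme RNase L, gave 4.25, 4.12, 4.11, 6.74 and 13.2 CPM and was 3.11-fold higher (2.13 to 4.64). Both genes were nearly level over the lower 3 doses or varied without order there, and both were highest at 1.2 µM.

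IFI6, a small membrane protein that protects from cell death and blocks flaviviruses, gave 19.5, 21.3, 18.2, 27.6 and 42.7 CPM, or 2.19-fold more at 1.2 µM (1.82 to 2.64). XAF1, a pro-apoptotic partner of XIAP, gave 15.5, 15.6, 14.5, 20.5 and 33.9 CPM, 2.19-fold more (1.78 to 2.71). HERC5, the ligase that attaches ISG15 to new proteins, gave 12.1, 14.2, 12.7, 15.9 and 25.3 CPM, 2.09-fold more (1.64 to 2.66). All 3 dipped at 300 nM and had their widest gap between 600 nM and 1.2 µM.

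IFI27, another small interferon-induced membrane protein, gave 6.77, 9.97, 5.71, 10.6 and 17.7 CPM, 2.62-fold more at 1.2 µM (1.92 to 3.60). It was the 1 gene of the 8 that was not highest at 1.2 µM, since the 16 nM cells had 20.1 CPM. BST2, or tetherin, which holds budding viruses at the cell surface, gave 5.46, 7.58, 7.43, 11.4 and 13.3 CPM, 2.43-fold more (1.71 to 3.49). OAS3, a relative of OAS2, stood just short of the limit at 1.99-fold (1.58 to 2.51), with 13.2 and 26.2 CPM at the 2 ends.

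**Figure D2:**
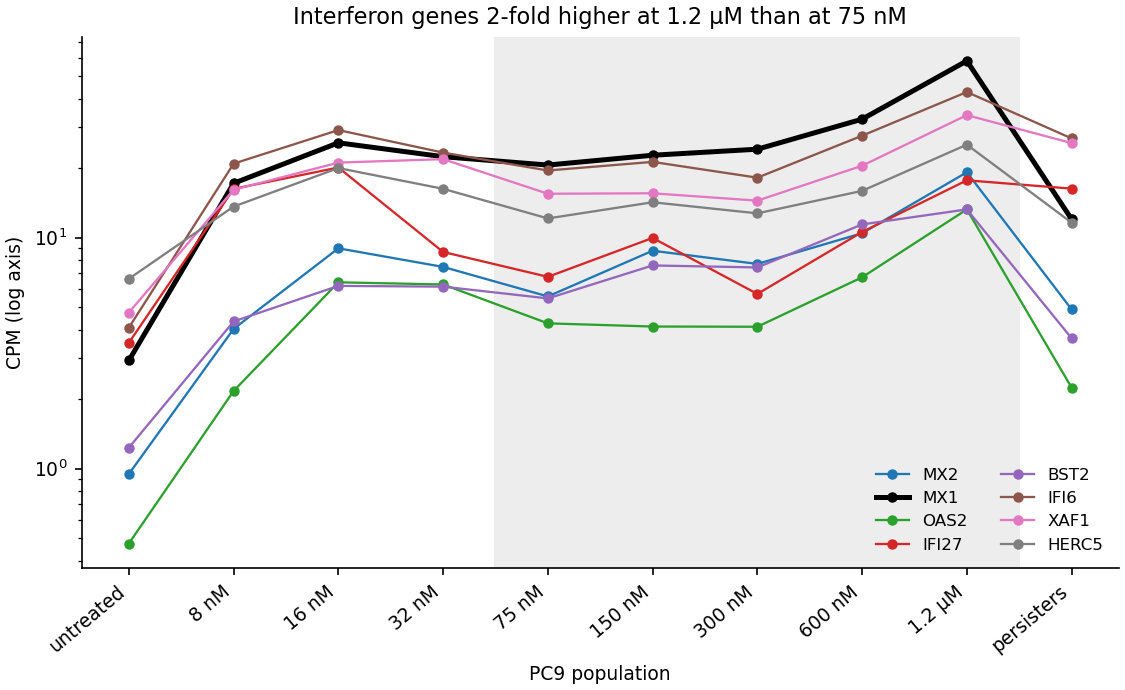
Levels (CPM, log axis) of the 8 interferon-list genes at least 2-fold higher at 1.2 µM than at 75 nM, in the 10 PC9 populations; 1 point is 1 population and grey marks the doses compared. All 8 are lowest in untreated cells and higher at 1.2 µM than at 75 nM, and 7 of the 8 have their highest level at 1.2 µM; IFI27 peaks at 16 nM.

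Most of the list was also higher at 1.2 µM, by smaller amounts. It was chosen with earlier results of these data in view, so its direction is a description. Of 57 interferon-stimulated genes, 54 had a row in the table and 41 were measured. Of those 41, 8 were 2-fold higher at 1.2 µM and 19 were 1.5-fold higher, 46.3% against 0.742% of all measured genes. None was 1.5-fold lower. The median log2 ratio was 0.54. Above 0 lay 40 of the 41, the exception being LGALS3BP at -0.05, against 4091 of all 9293 measured genes. Members such as MX2, OAS2, IFI27, BST2 and IFIH1 were under 10 CPM at 75 nM and counted as measured only through their 1.2 µM level. Members under 10 CPM in both populations stayed out. The counts and the median are in part shaped by this rule. The summed level of the 41 measured members was 1378, 1411, 1339, 1589 and 1960 CPM from 75 nM to 1.2 µM. It was 902.5 CPM in untreated cells and 1654 CPM in persisters. Over all 54 rows, measured or not, the sum was 1414 CPM at 75 nM and 2024 CPM at 1.2 µM. The 3 lower doses formed a floor, and the sums stood above it at 600 nM and further above it at 1.2 µM.

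The gap between 600 nM and 1.2 µM was the widest of the 4 for 22 of the 41 members and that between 300 and 600 nM for 15. At 1.2 µM, 29 of the 41 had the highest level of the 10 populations. These counts were not made over all measured genes, so they describe the list alone. At 75 nM, 33 of the 41 stood below the higher of their 8 and 16 nM levels, also without a count over all genes. The list's median log2 ratio to 75 nM was 0.01 at 8 nM and 0.16 at both 16 and 32 nM. The 75 nM level was thus near that at 8 nM and somewhat below those at 16 and 32 nM. Against the 300 nM cells the list's median was 0.76, and against the 150 nM cells 0.51. Between 600 and 150 nM it was 0.14.

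Among members named after their values were seen, ISG15, the ubiquitin-like tag that HERC5 attaches, gave 76.9, 91.1, 71.5, 107.8 and 138.3 CPM, 1.80-fold more at 1.2 µM (1.63 to 1.98). PARP14, a mono-ADP-ribosyltransferase, stood at 43.0 and 74.5 CPM, a ratio of 1.73 (1.52 to 1.98). IFIT2 and IFIT3, which bind foreign RNA and are strongly induced in many interferon responses, were 27.1 and 30.5 CPM and 18.4 and 23.8 CPM at the 2 ends, with log2 ratios of 0.17 and 0.35. The list was thus uneven, with MX1, MX2 and OAS2 at one end and IFIT2 and IFIT3 below its median.

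Among the signalling genes upstream, the receptors and kinases moved less than the list's median. All of these signalling genes were listed after the interferon values were seen. The receptor subunits IFNAR1 and IFNGR1 were 1.14-fold (0.981 to 1.32) and 0.886-fold (0.707 to 1.11) the 75 nM level at 1.2 µM. JAK1 stood at 332.5 and 307.5 CPM and TYK2 at 11.6 and 9.19 CPM. STAT2, a transcription factor of the pathway, stood at 16.1 and 28.0 CPM, 1.73-fold higher (1.40 to 2.15). STAT2 is itself interferon-induced and belongs to the list, and its log2 ratio of 0.76 lay above the list's median. The kinases and receptors differed by less than 1.5-fold in either direction.

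The sensors DDX58 and IFIH1, also list members, were 1.40-fold (1.14 to 1.71) and 1.48-fold (1.09 to 2.01) higher. CGAS, the DNA sensor, stood at 45.3 and 51.4 CPM, its adaptor STING (TMEM173 in the table) at 12.7 and 14.9 CPM, and MAVS, the adaptor of the RNA sensors, at 43.2 and 41.6 CPM. All 3 intervals of the fold included 1. Of the interferon ligand genes, IFNE was counted, with 5 UMIs at 75 nM and 6 at 1.2 µM, too few for a comparison.

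Among the genes whose level over the 10 populations ran most like that of MX1, by Pearson correlation of log2(CPM + 1), were MRPS36 (0.96), RNF130 (0.95) and MAP3K14 (0.95). The 10 points share 1 pool and 1 dose series. None of the 3 is in the interferon list, and none of them differed by 1.5-fold. MRPS36 stood at 70.7 and 72.9 CPM, RNF130 at 82.4 and 90.4 CPM, and MAP3K14 at 45.5 and 48.1 CPM at the ends of the plateau.

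Antigen presentation by MHC class I, which interferons also raise, was higher by a smaller amount. Of 17 measured genes in that list, 15 lay above 0, against 4091 of all 9293 measured genes. None was 2-fold higher and 1, HLA-B, was 1.5-fold higher, or 5.88% against 0.742% of all measured genes. The list's median was 0.31. HLA-B gave 80.2, 82.6, 75.8, 93.3 and 130.6 CPM, 1.63-fold more at 1.2 µM (1.48 to 1.79). B2M, the shared light chain, stood at 639.1 and 888.4 CPM (1.39-fold, 1.34 to 1.44), and PSMB9, an immunoproteasome subunit, at 45.3 and 62.2 CPM (1.37-fold, 1.20 to 1.57). HLA-C was 1.29-fold higher (1.20 to 1.38). Reads of the HLA genes can be split among near-identical copies, which makes each single value uncertain.

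The course of this group differed from that of MX1. HLA-B had been 134.1 and 134.8 CPM at 8 and 16 nM, above its level at 1.2 µM, and was 267.3 CPM in persisters. At 75 nM, 14 of the 17 members stood below the higher of their 8 and 16 nM levels, and 1 of the 17 was highest at 1.2 µM. The list's median log2 ratio to 75 nM was 0.38 at 8 nM and 0.42 at 16 nM. The values from 75 to 300 nM therefore form a trough between the early doses and the top dose. MHC class II had 2 measured members with a median of 0.08.

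**Figure D3:**
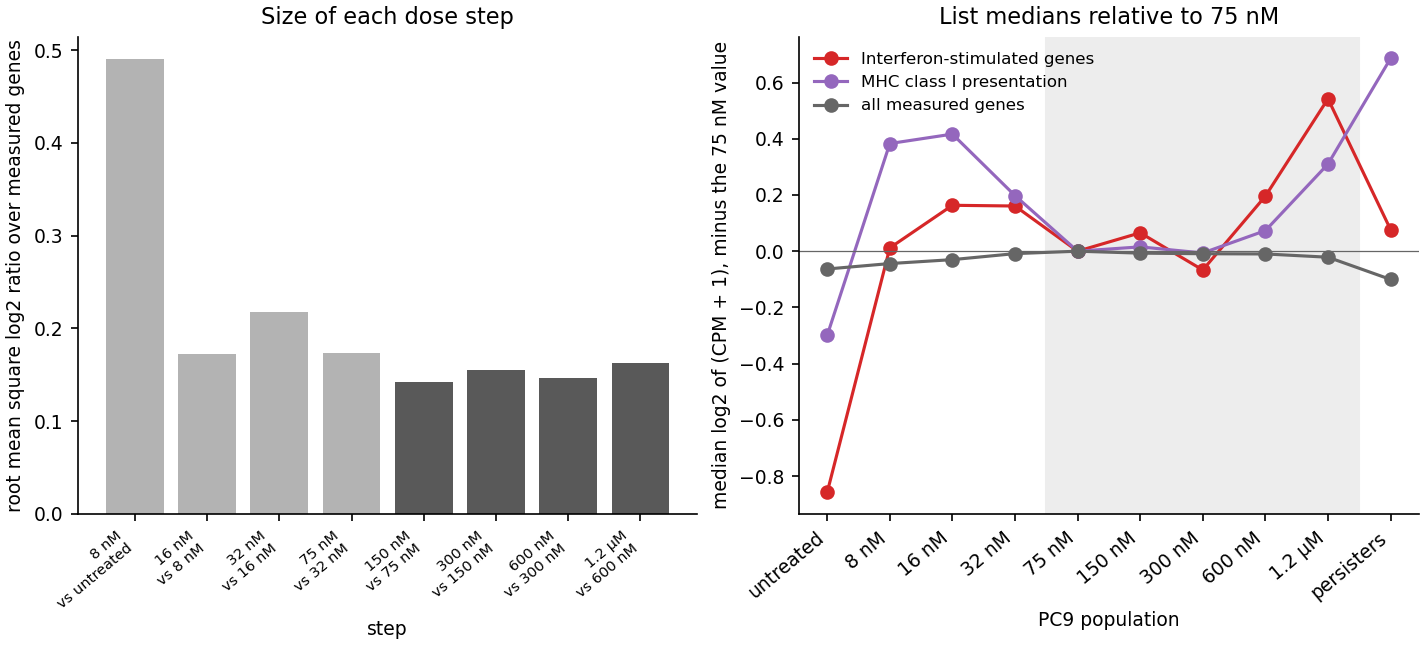
Left, bars give the root mean square log2 ratio over measured genes for each of 8 successive dose steps, with the 4 plateau steps in dark grey at 0.142 to 0.163. Right, lines give the median log2 ratio to the 75 nM level (log2 of CPM + 1) of the 41 interferon-list genes, the 17 MHC class I genes and all 9293 measured genes in the 10 populations; the interferon line reaches 0.54 and the MHC line 0.31 at 1.2 µM while the line of all genes stays near 0.

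Within the populations, MX1 was seen in a minority of cells. A UMI of MX1 was found in 137 of 1320 cells at 75 nM, or 10.4% (8.79 to 12.1%), and in 247 of 1072 at 1.2 µM, or 23.0% (20.6 to 25.7%). The shares between were 10.2%, 10.4% and 15.6% at 150, 300 and 600 nM. After thinning each cell to 3832 UMIs and leaving out 121 and 96 shallower cells, the shares were 6.25% (4.95 to 7.78%) and 15.8% (13.6 to 18.2%). In untreated cells, where MX1 was lowest and the median depth was 7968 UMIs against 6744 and 6738 at the 2 ends, 2.21% of cells had a UMI. The untreated share gives an upper bound on what free RNA in the pool added, since all populations were processed together.

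The 5% of cells with most MX1 held 62.4% of its UMIs at 75 nM and 48.5% at 1.2 µM. This share falls as more cells hold a UMI, and 10.4% and 23.0% of cells did. It therefore does not show separately how MX1 was spread among cells. The other 40 measured interferon genes were summed in the same cells. Cells with an MX1 UMI had 2780 CPM of them at 75 nM and 3209 CPM at 1.2 µM, and cells without one had 1189 and 1479 CPM. Cells with and without MX1 were of like depth, with medians of 6831 and 6744 UMIs at 75 nM and 7077 and 6660 UMIs at 1.2 µM. The sum was higher at 1.2 µM on both sides of that split.

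Counted per thinned cell, the other interferon genes gave a median of 4 UMIs at 75 nM and 5 at 1.2 µM, a 95th percentile of 12 and 19, and a 99th percentile of 30.0 and 41.0. The upper end of the cells moved further than the middle. The 99th percentile of untreated cells was 9 UMIs. Of the 75 nM cells 8.26% lay above it (6.76 to 9.96%), of the 1.2 µM cells 17.8% (15.5 to 20.4%), and the doses between gave 7.88%, 8.82% and 12.3%. This limit cuts a continuous range, with 43 cells at 75 nM and 75 at 1.2 µM within 1 UMI of it. In persisters 13.2% of cells lay above the limit, but their 99th percentile was 15 UMIs.

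**Figure D4:**
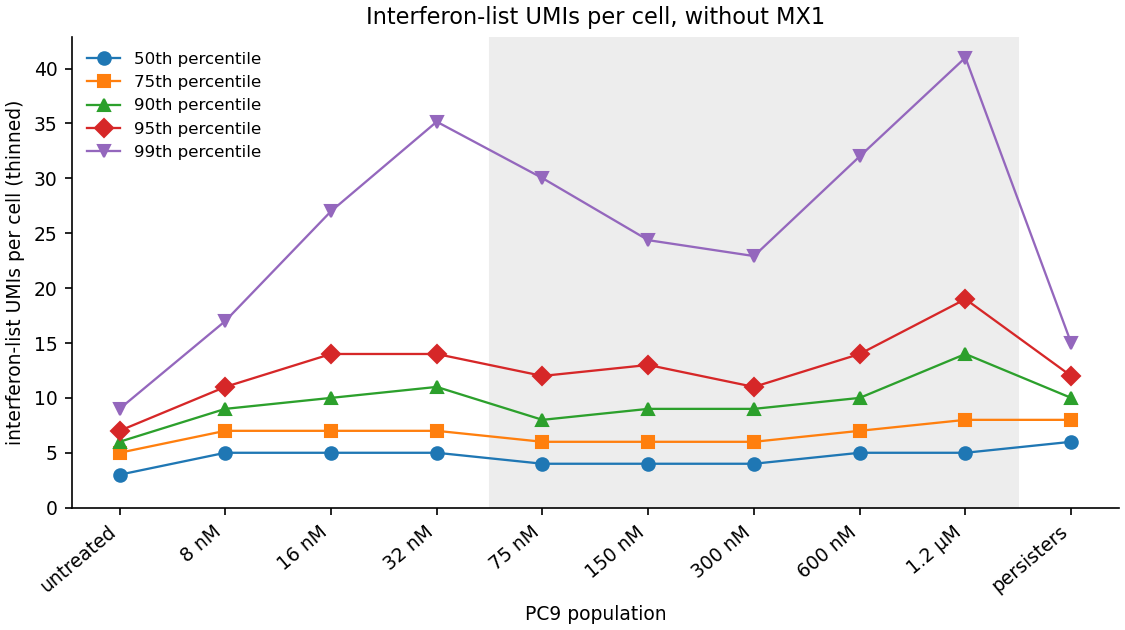
Percentiles of the UMIs of 40 interferon-list genes (MX1 left out) per cell, after thinning to 3832 UMIs, in the 10 PC9 populations; grey marks the doses compared. The median moves from 4 at 75 nM to 5 at 1.2 µM and the 99th percentile from 30.0 to 41.0.

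The authors' cell table lists 505 of the 75 nM cells (38.3%) and 395 of the 1.2 µM cells (36.8%). MX1 was 31.2 CPM at 75 nM and 82.3 CPM at 1.2 µM among listed cells, and 15.7 and 47.5 CPM among the others. The direction was the same in both sets. The authors' cluster numbers were drawn from the expression of the same cells, so levels between clusters and cluster sizes are not results here. Within the cluster numbered 4, MX1 was 43.6 CPM at 75 nM (42 UMIs) and 122.3 CPM at 1.2 µM (160 UMIs). Within the cluster numbered 3 it was 11.2 and 13.7 CPM, on 14 and 12 UMIs.

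The 8 other genes past 2-fold on the high side included secreted or surface signalling proteins, among them GFRA1 and BMP6. GFRA1, the surface co-receptor through which GDNF signals to the kinase RET, gave 7.75, 7.98, 14.2, 16.2 and 26.6 CPM and was 3.44-fold higher at 1.2 µM (2.61 to 4.57). It lies on chromosome 10 (116056925 to 116273467, minus strand). It was 0.189 CPM in untreated cells, on 2 UMIs, and 1.63 CPM in persisters, so its level was ordered by dose across the whole escalation. A UMI was found in 4.24% of cells at 75 nM and 14.4% at 1.2 µM. Among cells of the authors' table it was 9.60 and 18.4 CPM, short of 2-fold, and among the others 6.88 and 30.3 CPM. BMP6, a bone morphogenetic protein ligand, gave 13.9, 21.1, 33.7, 41.9 and 38.5 CPM, 2.78-fold more (2.25 to 3.45), and was 1.42 CPM in untreated cells. Its widest gap lay between 150 and 300 nM and its top at 600 nM, so its course was not that of MX1.

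Genes that respond to BMP ligands were looked up after these values were seen. SMAD6, an inhibitor induced by the pathway, gave 15.5, 22.9, 25.2, 27.4 and 25.1 CPM, 1.62-fold more (1.30 to 2.03). ID1, a direct target, gave 140.4, 166.2, 171.8, 217.7 and 175.7 CPM, and ID3 217.6, 236.4, 253.0, 292.1 and 276.9 CPM. These 3 were highest of the 5 doses at 600 nM, as BMP6 was. SMAD7 and BAMBI, feedback inhibitors that were also looked up, were not: SMAD7 gave 10.4, 11.04, 11.9, 10.3 and 11.5 CPM and BAMBI 21.8, 21.4, 28.7, 22.7 and 26.2 CPM, both highest at 300 nM. The list of TGF-beta and BMP signalling genes, which holds none past 2-fold among 24 measured, had a median of 0.08.

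RNF150, a RING finger protein, gave 6.98, 7.31, 12.3, 11.7 and 21.8 CPM, 3.12-fold more (2.32 to 4.23). XAGE2, a cancer/testis antigen from a family of near-identical copies whose reads may be split, gave 25.4, 31.5, 39.3, 37.9 and 62.6 CPM, 2.46-fold more (2.10 to 2.89), and was 1.99 CPM in untreated cells. ANKRD1, an ankyrin repeat protein known as a target of the co-activator YAP, gave 14.7, 17.0, 17.9, 21.2 and 29.5 CPM, 2.00-fold more (1.61 to 2.50). Of 27 measured YAP target genes, ANKRD1 was the only one past 1.5-fold, or 3.70% against 0.742% of all measured genes. Above 0 lay 12 of the 27, a share near that of all measured genes (4091 of 9293), and the median was -0.05. CTGF was 1.49-fold higher (1.17 to 1.90) and CYR61 1.24-fold higher (1.16 to 1.32).

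CCL5, a chemokine that draws T cells, gave 5.13, 10.4, 2.65, 10.2 and 13.7 CPM without an order by dose, 2.66-fold more from end to end (1.87 to 3.85). Most of that difference lay in cells of the authors' table, with 1.37 and 24.5 CPM, against 6.88 and 8.80 CPM in the others. CCL5 had 47 UMIs in all at 75 nM and 101 at 1.2 µM, so this split rests on few molecules. SLC43A2, an amino acid transporter, stood at 5.24 and 11.6 CPM. SC5D, an enzyme late in cholesterol synthesis, stood at 5.78 and 11.8 CPM, while the 21 measured genes of that pathway had a median of 0.14 and no other member past 1.5-fold.

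Just under 2-fold were APOE, a lipid carrier, NNMT, which methylates nicotinamide, and SAA1, an acute-phase protein. APOE gave 34.8, 40.3, 40.2, 52.8 and 67.6 CPM, 1.94-fold more (1.68 to 2.24). NNMT gave 27.5, 32.4, 38.1, 40.5 and 50.6 CPM, 1.84-fold more (1.56 to 2.17), after 1.14 CPM in untreated cells. SAA1 stood at 38.8 and 71.0 CPM, 1.83-fold more (1.59 to 2.10), and at 206.0 CPM in persisters. NNMT was ordered by dose from 8 nM on.

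The 4 genes 2-fold lower at 1.2 µM were KCNQ5, GNGT1, DGKI and ABI3BP. KCNQ5, a voltage-gated potassium channel on chromosome 6 (72621792 to 73198851, plus strand), gave 47.4, 19.9, 12.7, 9.07 and 19.3 CPM, 2.45-fold less (2.02 to 2.98). It was 107.7 CPM in untreated cells and 163.8 CPM at 16 nM. The low point was 600 nM, and the 1.2 µM level was 2.13-fold that of 600 nM, so the end comparison understates how far it had gone down on the way. Against 300 nM the 1.2 µM cells were higher, with a log2 ratio of 0.57. Among cells of the authors' table KCNQ5 was 78.8 CPM at 75 nM and 18.8 CPM at 1.2 µM, and among the others 32.6 and 19.6 CPM, short of 2-fold.

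GNGT1, a gamma subunit of the G protein of light sensing, gave 13.5, 9.57, 6.37, 7.84 and 6.08 CPM, 2.23-fold less (1.57 to 3.20). DGKI, a diacylglycerol kinase, gave 39.8, 30.5, 34.1, 24.6 and 19.5 CPM, 2.05-fold less (1.68 to 2.50). It had been 6.73 CPM in untreated cells, so 75 nM was the highest of its 10 levels. Among cells of the authors' table it was 32.9 and 21.4 CPM, short of 2-fold, and among the others 43.0 and 18.6 CPM. ABI3BP, an extracellular matrix protein, stood at 10.4 and 4.87 CPM. None of the 4 moved in 1 direction through all 5 doses.

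**Figure D5:**
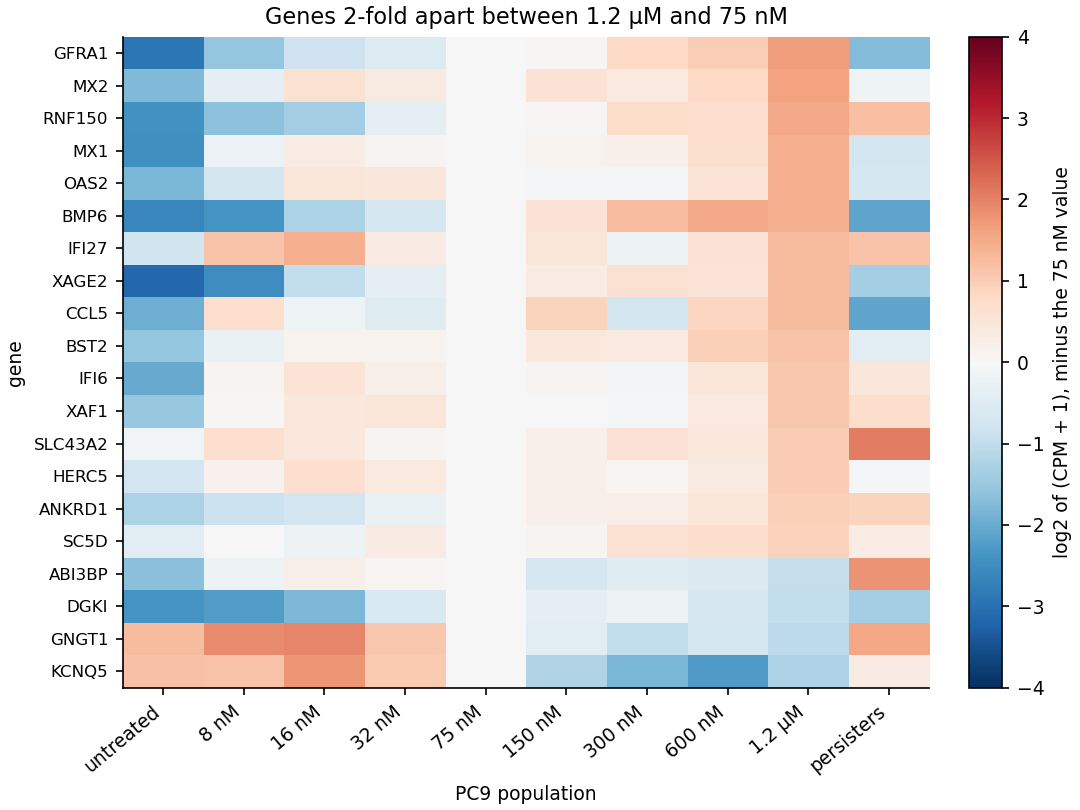
Colour gives log2 of CPM + 1 minus the 75 nM value for the 20 genes at least 2-fold apart (16 higher above, 4 lower below) in the 10 PC9 populations. GFRA1, BMP6 and XAGE2 are blue in untreated cells, at 8 nM and in persisters. Within its own row, MX1 has its darkest red at 1.2 µM and KCNQ5 its darkest blue at 600 nM.

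Among genes with at least 25 CPM, the next lowest ratios belonged to ADAMTS6, a matrix protease (30.1 to 15.4 CPM, 1.96-fold less), IGFBP5 (1.79-fold less), PDE4D, a phosphodiesterase that degrades cyclic AMP (64.4 to 37.4 CPM, 1.72-fold less), and KRT13, a keratin (91.7 to 56.4 CPM, 1.63-fold less). PIMREG, a mitotic protein, MARC1, GAL, the neuropeptide galanin, GABBR2, a GABA receptor subunit, KRT5 and DENND1B were 1.52-fold to 1.54-fold less. MARC1 and GAL were ordered by dose on the plateau. KRT5, KRT13 and KRT6A were the 3 of 13 measured keratin and filament genes 1.5-fold lower, against 0.506% of all measured genes. KRT81 was 1.57-fold higher (10.5 to 16.5 CPM), and reads of KRT6A may be split with its near copies.

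Proteins that bind insulin-like growth factors differed in both directions. Of 7 measured, 1 was 1.5-fold lower, against 0.506% of all measured genes. Above 0 lay 3 of the 7, a share near that of all measured genes (4091 of 9293), and the median was -0.33. IGFBP5 gave 133.2, 104.1, 141.6, 130.3 and 74.6 CPM, 1.79-fold less at 1.2 µM (1.61 to 1.98), and nearly all of that difference lay between 600 nM and 1.2 µM. From 150 to 600 nM its log2 ratio was 0.32, in the other direction. IGFBP3 gave 1471, 1461, 1340, 1325 and 1167 CPM, 1.26-fold less (1.23 to 1.30), in the order of the doses. IGFBP4 stood at 56.6 and 44.3 CPM and IGFBP2 at 26.3 and 18.8 CPM, while IGFBP7 went the other way, from 278.0 to 331.0 CPM (1.19-fold, 1.13 to 1.26).

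Metallothioneins, small proteins that bind zinc and copper, were lower in all 4 measured members, with a median of -0.40 and none past 1.5-fold. MT2A gave 700.3, 654.5, 577.9, 519.4 and 599.8 CPM, MT1X 57.4 and 42.7 CPM and MT1E 52.8 and 36.4 CPM. The MT1 genes are near copies of each other and their single values are uncertain. Against 300 nM the list's median was -0.08, but the members differed. At 300 nM MT1X stood at 49.35 CPM and MT1E at 46.04 CPM, each between its levels at 75 nM and 1.2 µM, while MT2A was lowest at 600 nM.

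The drug's target and its pathway differed little. EGFR gave 631.4, 575.0, 560.5, 546.5 and 538.9 CPM, ordered by dose, 1.17-fold less at 1.2 µM (1.12 to 1.22), after 981.1 CPM in untreated cells. The transcriptional output of MAP kinase signalling, 14 measured genes, had a median of -0.01 and no member past 1.5-fold. DUSP6, a feedback phosphatase in that set of genes, was 1.42 and 1.08 CPM against 17.8 CPM in untreated cells, too low to be measured here. The EGFR family and its ligands had a median of 0.10 over 10 genes and no member past 1.5-fold. AXL and MET, receptor kinases often discussed as bypass routes, stood at 199.9 and 212.5 CPM and at 439.9 and 452.5 CPM.

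Cell cycle genes of S phase had a median of 0.01 over 45 measured genes. Those of G2 and M phase had a median of -0.17 over 56, of which 5 lay above 0, against 4091 of all 9293 measured genes. Of the 56, 1, PIMREG, was 1.5-fold lower, against 0.506% of all measured genes. TOP2A gave 254.6, 265.3, 257.8, 220.1 and 205.8 CPM. Fewer cells in G2 and M phase and less of these RNAs per cell cannot be told apart in summed counts. Genes of the respiratory chain, ribosomal proteins, p53 targets, heat shock proteins, NRF2 targets and the unfolded protein response had medians between -0.08 and 0.04, with no member past 1.5-fold. NUPR1, a stress-induced chromatin protein, gave 80.5, 85.9, 112.0, 124.1 and 129.1 CPM, 1.60-fold more (1.46 to 1.77), ordered by dose. It was the only one of 24 measured genes of its stress list past 1.5-fold, or 4.17% against 0.742% of all measured genes.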

How the data were processed

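Cells of 10 PC9 populations were tagged with CellPlex, pooled and loaded on the Chromium platform, per the labels' protocols. The authors deposited raw UMI counts of 15429 genes in 11258 cells, per the labels, and a table of 4208 of these cells with total counts, mitochondrial percent and cluster, per the file headers. These deposited totals and percents matched the count table for each listed cell. Cell Ranger 7.0.0 and the GRCh38 build are named, without their role, in the submitters' processing notes. The filtering of cells and genes is not given in the sources used here. No doublet caller was run.

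UMIs were summed per population and scaled to CPM. Ratios are log2(CPM + 1), folds are CPM ratios with 95% exact binomial intervals, and shares of cells have exact Clopper-Pearson intervals. Genes called were measured and 2-fold apart. For shares, cells were thinned to the 10th percentile of UMIs, 3832.

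Named genes were the 12 highest and 12 lowest ratios with at least 25 CPM (no clone-named, antisense or LINC genes), MX1, EGFR, up to 5 members of lists with 2 members past 2-fold or a median over 0.3 from that of all genes, markers of other cells with 10 CPM, the 5 genes most like MX1, and all genes past 2-fold. Some genes under this rule are not reported here. The comparison, the 47 lists and the rule were chosen with earlier results of these data known, and other named genes after their values were seen. Alternatives were another pseudocount and other filters, folds, scalings, cells and populations. Python 3.11.15 (numpy 2.4.6, scipy 1.17.1, pandas 2.3.3, matplotlib 3.10.9) and edgeR 4.0.16 in R 4.3.3, for trimmed mean factors only, were used, and the scripts were tested on simulated data. Gene positions are from GENCODE v29.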

Additional observations from a re-analysis of the deposited data

How the results depend on the processing

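No paired analysis was possible because each population is 1 culture and no test was made. The counts of called genes sit on a threshold and depend on it. The main counts were 16 genes higher, 4 lower and 8 higher in the interferon list. With a pseudocount of 5 CPM they were 6, 1 and 2, without a CPM minimum 53, 60 and 13, with at least 50 CPM 2, 0 and 1, at 1.5-fold 69, 47 and 19, and at 3-fold 4, 0 and 2. By construction, a stricter filter or fold gives fewer genes, a looser one gives more, and a larger pseudocount gives smaller ratios. With listed cells only, which hold fewer UMIs, 42 genes were higher and 55 lower, and the cause of these larger counts was not tested. Genes lower numbered 8 when mitochondrial and ribosomal protein genes were dropped from the totals, 8 by the mean of per-cell CPM and 13 in thinned cells. The counts between 600 and 150 nM were 2, 2 and 0. In comparisons chosen after seeing the data, 1.2 µM against 150 nM gave 9 higher and 0 lower, 1.2 µM against 300 nM gave 2 lower, and 600 against 75 nM gave 4 higher, 1 of them in the interferon list.

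MX1 stayed higher in every setting tried. Its log2 ratio of 1.45 was 0.50 between 600 and 150 nM, 0.63 between 600 and 75 nM and 1.24 between 1.2 µM and 300 nM, and 1.30 to 1.52 under the other settings. No scaling or choice of cells turned around a named list or a named gene whose counting interval excluded 1. Genes near 0 changed sign between choices of cells, such as CD68 (0.0037, or -0.25 in listed cells). Other populations turned around some genes whose interval excluded 1. Between 600 and 150 nM the log2 ratios were -0.026 for CCL5, -0.064 for OAS3, -0.072 for CLDN7, 0.009 for KRT8, 0.064 for DENND1B, 0.046 for GABBR2, 0.10 for KRT13 and 0.32 for IGFBP5. Between 1.2 µM and 300 nM they were 0.044 for KRT8, 0.054 for MT2A and 0.57 for KCNQ5, and between 600 and 75 nM -0.027 for CLDN7. The cause was not tested. Counting error limits genes near 10 CPM, and 3 UMIs correspond to 0.327 CPM at 75 nM and 0.405 CPM at 1.2 µM.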
